A study of Mus musculus with 2 samples.

Results

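The kallikrein-related peptidases Klk5 to Klk14 are a family of secreted serine proteases, several of which take part in desquamation, the shedding of the outermost epidermal cells. The members were the rows of the deposited expression table named Klk5, Klk6, Klk7, Klk8, Klk9, Klk10, Klk11, Klk12, Klk13 and Klk14, 10 genes of the 26242 in the table that had a name and a RefSeq transcript. Their RNA was measured in the epidermal layer of ears of C57BL/6 mice after 5% imiquimod cream on 6 consecutive days, a model of psoriasis-like inflammation in which both groups had the same treatment. One group was wild type and the other was labelled K14 conditional Il9ra KO, a deletion of the interleukin-9 receptor gene driven through keratin 14, a keratin of basal keratinocytes. There was 1 library per group, and the sources used here give neither the number nor the age of the animals behind a library, so the spread between animals is unknown for every difference below. Untreated ears were not analysed here.

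In the epidermis, kallikreins are made mainly by granular keratinocytes, released as inactive proenzymes and activated by cleavage in the spaces of the cornified layer. There KLK5 and KLK14, which cut like trypsin, and KLK7, which cuts like chymotrypsin, are known in humans to degrade the proteins of corneodesmosomes, the junctions that hold corneocytes together. The inhibitor LEKTI, the product of Spink5, restrains them, and human KLK5 can also activate protease-activated receptor 2 and process the antimicrobial peptide cathelicidin.

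Values are FPKM, which divide the fragments of a transcript by its length and by library size and so allow levels of different genes to be set side by side. From the steps between the lowest values, depth was estimated at about 24100000 fragments for the wild-type library and about 31300000 for that of the knockout. Krt14 was at 7421 FPKM in wild type against 8083 FPKM in the knockout library, while the dermal collagen gene Col1a1 was at 0.089 and 0.097 FPKM. Of 7 fibroblast genes, Dcn, the gene of decorin, alone passed the filter of 1 FPKM described below, at 2.02 and 1.59 FPKM, and the list had a summed level of 2.64 and 2.07 FPKM. Il9r itself was at 0.039 and 0.011 FPKM, too low to check the genotype label, and the labels do not name the exons that were deleted.

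Of the 10 kallikreins, 8 were well expressed in both libraries and 2, Klk12 and Klk14, were near the floor. The levels in the knockout library lay close to those in the wild-type library, with Klk5 and Klk7 slightly lower and Klk13, Klk11 and Klk10 moderately higher. Summed over the 10 genes the level was 1056 FPKM in wild type against 1078 FPKM in the knockout library, a ratio of 1.02. No member was 2-fold or even 1.5-fold apart on the log2(FPKM + 1) scale. Of the 11886 genes that reached 1 FPKM in 1 library or more, called past the filter below, 0.757% differed 2-fold or more and 2.75% differed 1.5-fold or more, so 0 of 10 members is close to this background. Klk12 was the 1 member below 1 FPKM in both libraries, and the other 9 were above it in both.

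**Figure D1:**
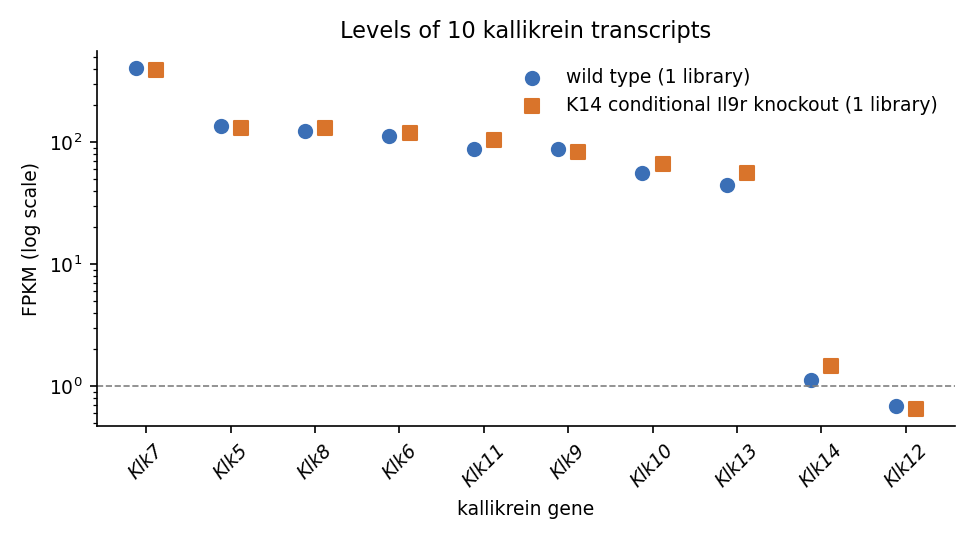
FPKM on a log axis of the 10 kallikrein transcripts in the wild-type library (circles) and the knockout library (squares), ordered by the wild-type level, with the 1 FPKM filter dashed and with no error bars, as there was 1 library per genotype. Klk7 stands alone at the top, 7 genes lie between 44.4 and 135.6 FPKM, and Klk14 and Klk12 lie near 1 FPKM.

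The main proteases of desquamation were at nearly the same level in both libraries. Klk7, the stratum corneum chymotryptic enzyme (ENSMUSG00000030713, plus strand of chromosome 7, 43811294 to 43816359 in GRCm38), was the most abundant member, at 405.6 FPKM in wild type against 388 FPKM in the knockout library. Its rank was 224 in wild type and 226 in the knockout among the genes past the filter and made up 38.4% and 36.0% of the summed kallikrein FPKM. Klk5, the trypsin-like enzyme that can activate other kallikreins (ENSMUSG00000074155, 43841971 to 43851181), was at 135.6 and 129.3 FPKM. Both were therefore lower in the knockout library, by 4.33% for Klk7 and 4.69% for Klk5. The ratio of Klk7 to Klk5 was 2.99 in wild type and 3.00 with the knockout.

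Klk14, trypsin-like as Klk5 is (ENSMUSG00000044737, 43690418 to 43695536), was scarce, at 1.12 FPKM in wild type against 1.45 FPKM in the knockout library. These values correspond to about 34 and about 58 fragments. Klk5 was 121-fold above Klk14 in wild type and 89.1-fold with the knockout. The log2 difference of Klk14 was 0.21 with the pseudocount of 1 FPKM, 0.34 with 0.1 FPKM and 0.075 with 5 FPKM, so its size depended on the scale. Klk12, a little-studied trypsin-like member (ENSMUSG00000044430, 43768897 to 43773585), was the lowest of the family, at 0.69 and 0.65 FPKM, or about 15 and about 19 fragments. At such depth a difference between the libraries was not detectable for Klk12.

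Klk6 and Klk8, known as neurosin and neuropsin from their study in the nervous system, are also keratinocyte products. Klk8 was at 123.7 FPKM in wild type against 129.4 FPKM in the knockout library, and Klk6 at 112.6 and 119.5 FPKM. Both were slightly higher in the knockout library, by log2 differences of 0.07 and 0.08. Klk9, one of the least characterised members, was at 88.0 and 83.7 FPKM, a log2 difference of -0.07. The log2 differences of Klk5, Klk6, Klk7, Klk8 and Klk9 thus ran from -0.07 to 0.08.

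Klk13, Klk11 and Klk10 had the largest differences among the well expressed members, each higher in the knockout library. Klk13, a trypsin-like protease of stratified epithelia (ENSMUSG00000054046, 43712567 to 43727534), was at 44.4 FPKM in wild type against 56.0 FPKM in the knockout library, a ratio of 1.26. Klk11, also called hippostasin (ENSMUSG00000067616, 43774604 to 43779263), was at 88.1 and 104.6 FPKM, a ratio of 1.19. Klk10, known as normal epithelial cell-specific 1 (ENSMUSG00000030693, 43781035 to 43785410), was at 56.1 and 65.6 FPKM, a ratio of 1.17. Their log2 differences of 0.33, 0.24 and 0.22 exceeded those of 95.6%, 92.4% and 91.2% of the genes past the filter. The middle 90% of those genes lay between -0.34 and 0.31, so of the 10 members Klk13 alone lay outside that range. The level of Klk13 was 10.9% of that of Klk7 in wild type and 14.4% with the knockout, a ratio that no scaling between libraries can change.

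**Figure D2:**
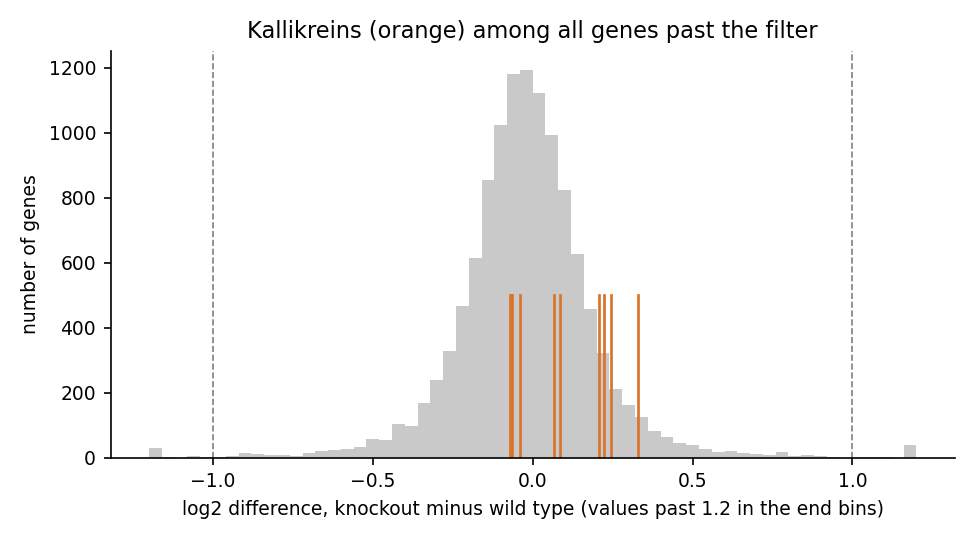
Histogram of the log2 difference, knockout minus wild type, on the log2(FPKM + 1) scale for the 11886 genes past the filter (grey, number of genes per bin), with the 10 kallikreins as orange lines of arbitrary height and 2-fold marked by dashed lines. The kallikreins run from -0.07 to 0.33, with Klk13 farthest to the right, just past the middle 90% of the genes.

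Over the 9 members past the filter, 6 were higher in the knockout and 3 were lower, and the median log2 difference was 0.08. Over all genes past the filter, 44.4% were higher and the median was -0.02. With Klk12 included, 6 of the 10 members were higher and 4 lower, and this split was the same under the 2 other scalings tried. Pseudocounts and filters cannot change the sign of a member. The share of all genes that were higher did change, to 52.0% with upper quartiles matched and to 31.1% with no filter. The authors' deposited table gave a q-value of 0.999 for each of the 10 members. In the authors' deposited table p ran from 0.197 for Klk13 to 0.912 for Klk12, by a test of 1 library against the other and not of the genotypes.

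The order of the levels was also alike. In both libraries Klk7 was first, 2.99-fold above the next member in wild type and 3.00-fold with the knockout, and Klk14 and Klk12 were last, after a gap of 39.6-fold and 38.6-fold below Klk13. Of the 10 members, 8 held the same place in both orders. The exceptions were Klk5 and Klk8, which lay 1.10-fold apart in the wild-type library and exchanged places in the knockout library, where they lay 1.00-fold apart. Klk11 and Klk9 were level in the wild-type library, at 88.1 and 88.0 FPKM, and 1.25-fold apart in the knockout library. With 1 library per genotype the order between such close neighbours cannot be told from error.

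The 10 genes lie side by side on the plus strand of chromosome 7, over 160.8 kb from 43690418 to 43851181 in GRCm38, in the order Klk14, Klk13, Klk12, Klk11, Klk10, Klk9, Klk8, Klk7, Klk6 and Klk5. Neighbours differed widely in level: Klk12, at 0.69 FPKM in the wild-type library, starts 5.71 kb before Klk11, at 88.1 FPKM. The differences between the libraries followed this order in part. Of the first 5 genes, Klk14 to Klk10, 4 were higher in the knockout library by at least 0.20 on the log2 scale, the exception being Klk12 at -0.04. Of the last 5, Klk9 to Klk5, 0 reached that size, with values from -0.07 to 0.08. The summed level of the first 5 was 190.4 FPKM in wild type against 228.4 FPKM in the knockout library, and that of the last 5 was 865.5 and 849.8 FPKM. The division between Klk10 and Klk9 was drawn after the values were seen, so it has no test. Nor was the limit of 0.20 among the settings fixed beforehand. Klk14 lay just above that limit, at 0.21 on about 34 and about 58 fragments. Adding 5 FPKM before the log brought Klk14 down to 0.075, which left Klk13, Klk11 and Klk10 above the limit. On the main scale the difference of Klk14 exceeded those of 90.0% of the genes past the filter. The other genes of the locus were silent or nearly so. Of 16 further kallikreins, Klk4, Klk15, Klk1 and 13 genes of the Klk1b group, 13 were listed at 0 in both libraries, and the remaining Klk1, Klk4 and Klk1b27 were at most 0.15 FPKM.

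**Figure D3:**
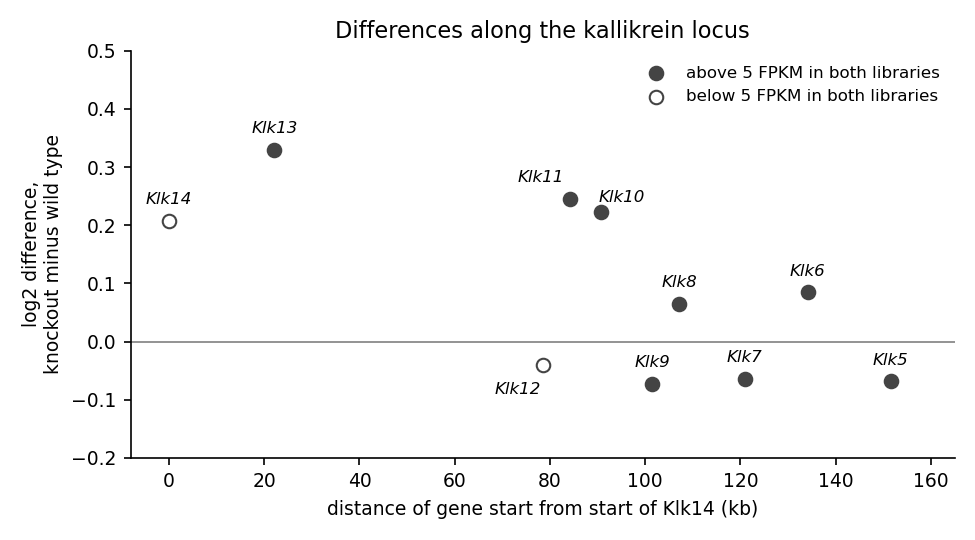
Log2 difference, knockout minus wild type, of each kallikrein against the distance in kb of its start from the start of Klk14, with open circles for the 2 genes below 5 FPKM in both libraries. Klk13, Klk11 and Klk10 lie above 0.20 and the 5 genes from Klk9 to Klk5 lie between -0.07 and 0.08.

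Reads can be divided between similar genes, so the transcripts of the members were compared. The longest run of identical bases shared by transcripts of any 2 members was 31 bases, between Klk12 and Klk11. Of all runs of 50 bases in the members' transcripts, those of 9 members occurred in no other mouse gene of GENCODE M21 on the same strand, and for Klk14 0.427% did. An antisense transcript, 2310002F09Rik, overlaps 287 exonic bases of Klk14 and 382 of Klk8. It was at 0.40 FPKM in wild type against 0.17 FPKM in the knockout library, far below Klk8 but nearer to the level of Klk14, and whether the counting used strand is not stated, so reads of the antisense partner cannot be told apart from those of both kallikreins. The row of Klk5 also holds 1 transcript assembled from the reads, while the other rows hold RefSeq transcripts alone.

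Because neighbours in 1 cluster differed so much in level, 3 promoter windows are shown, from 250 bases before to 50 after the start that RefSeq gives, on the plus strand of GRCm38. The RefSeq start of Klk7 is that of the GENCODE gene printed above, while those of Klk10 and Klk12 lie 19 and 203 bases after it. They are those of the most abundant member, Klk7 (chr7:43811044-43811343), the least abundant, Klk12 (chr7:43768850-43769149), and Klk10 (chr7:43780804-43781103), the only member with a match to a STAT motif, the family of factors that the interleukin-9 receptor signals through. Capitals mark AGATAA, which GATA factors bind, in Klk7 and Klk12, and TTCNNNGAA (STAT) and CCCCACCC (Kruppel-like factors, on either strand) in Klk10.
Klk7: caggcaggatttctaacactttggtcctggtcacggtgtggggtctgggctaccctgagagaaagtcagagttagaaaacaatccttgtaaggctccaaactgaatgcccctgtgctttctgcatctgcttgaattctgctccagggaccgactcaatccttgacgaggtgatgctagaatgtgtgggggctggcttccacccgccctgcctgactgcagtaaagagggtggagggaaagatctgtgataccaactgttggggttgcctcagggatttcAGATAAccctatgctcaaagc
Klk12: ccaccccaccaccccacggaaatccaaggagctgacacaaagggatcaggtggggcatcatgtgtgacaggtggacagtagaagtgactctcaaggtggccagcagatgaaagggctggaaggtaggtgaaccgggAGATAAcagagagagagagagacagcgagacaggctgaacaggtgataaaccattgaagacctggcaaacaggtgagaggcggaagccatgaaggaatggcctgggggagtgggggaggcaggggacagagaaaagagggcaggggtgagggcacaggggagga
Klk10: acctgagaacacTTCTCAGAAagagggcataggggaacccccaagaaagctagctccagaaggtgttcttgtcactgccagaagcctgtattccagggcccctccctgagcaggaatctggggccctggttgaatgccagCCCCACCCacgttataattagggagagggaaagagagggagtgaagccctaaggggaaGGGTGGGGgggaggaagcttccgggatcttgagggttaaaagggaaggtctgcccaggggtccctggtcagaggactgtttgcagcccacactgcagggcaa
The 10 members had 12 such windows, since Klk6 and Klk11 have 2 each. The RefSeq start of Klk5 lies 298 bases after that of the GENCODE gene, so its window lies within that gene. So do the later windows of Klk6 and Klk11, whose starts lie 951 and 1725 bases after those of the genes. AGATAA or its complement was found in Klk5, Klk7 and Klk12, against 11.2% of the 32851 mouse promoter windows. In Klk7 it lay 29 bases after the start. CCCCACCC was found in Klk5, Klk10 and Klk14, against 9.99% of all windows. TTCNNNGAA was found in Klk10 alone, 1 of the 12 windows, a share like the 8.30% of all windows. Klk13 and Klk11, which differed more between the libraries than Klk10, had no match to it, and binding was not tested. TTGCNNAA (C/EBP) was found in both windows of Klk11, against 10.8%. TATAAA (the TATA box), TGANTCA (AP-1) and CACGTG (the E-box) were in 0 of the 12 windows, against 13.6%, 7.81% and 7.15% of all windows. All motifs were searched on both strands, and in these windows none overlapped another. AGATAA was thus in the windows of both the most and the least abundant member.

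The inhibitors of kallikreins did not move as one group. Spink5, the gene of LEKTI, was at 93.0 FPKM in wild type against 88.6 FPKM in the knockout library. The summed FPKM of Klk5, Klk7 and Klk14 was 5.83-fold that of Spink5 in wild type and 5.86-fold with the knockout, so the proportion between these proteases and LEKTI was alike at the RNA level. Serpina12, the gene of vaspin, a serpin that inhibits human KLK7, was at 28.8 and 32.4 FPKM. Slpi, the secretory leukocyte protease inhibitor, was at 75.8 and 57.5 FPKM, the largest difference downward in this list. The Kazal-type genes Spink12 and Spink6 were higher in the knockout library from a low level, at 1.61 and 3.78 FPKM and at 1.27 and 2.23 FPKM. Of the 5 inhibitors past the filter 3 were higher, with a median log2 difference of 0.16, which became -0.07 with a filter of 5 FPKM that leaves out Spink12 and Spink6.

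Proteases that act upstream of or beside the kallikreins were mixed as well. Of 11 past the filter 5 were higher in the knockout and 6 were lower, and the median log2 difference was -0.06. St14, the gene of matriptase, which can activate kallikrein proenzymes, was at 24.0 FPKM in wild type against 22.2 FPKM in the knockout library, and Prss8, the gene of its partner prostasin, at 24.0 and 28.0 FPKM. Ctsd, the gene of the aspartic protease cathepsin D of the cornified layer, was at 504.7 and 546.5 FPKM. Plat, the gene of tissue plasminogen activator, was at 3.76 and 2.001 FPKM, the 1 gene of this list at least 1.5-fold apart. Meprin genes Mep1a and Mep1b, whose products can activate kallikreins, were listed at 0 in both libraries. Of the 2 Kunitz inhibitors of matriptase, Spint1 was at 34.0 and 24.9 FPKM and Spint2 at 159 and 169.6 FPKM.

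Kallikreins act outside the cell, where they cut corneodesmosin and the outer parts of desmoglein 1 and desmocollin 1. Plakoglobin, plakophilin 1 and desmoplakin are plaque proteins inside the cell. All 7 genes of these junctions past the filter were lower in the knockout library, by log2 differences of -0.27 to -0.09 and a median of -0.22, against -0.02 over all genes. None was 1.5-fold apart. The exception in direction was Dsg1c, the member of the list below the filter, at 0.67 and 0.70 FPKM. Cdsn, the gene of corneodesmosin, was at 394.5 FPKM in wild type against 333.1 FPKM in the knockout library. Jup, the gene of plakoglobin, was at 499.6 and 413.2 FPKM, and Pkp1, the gene of plakophilin 1, at 614.9 and 516.9 FPKM. Dsg1a, a desmoglein 1 gene of the mouse, differed least, at 319.9 and 300.6 FPKM. Dsg1a and Dsg1b are similar copies, so the split of reads between them is uncertain. F2rl1, the gene of protease-activated receptor 2, was at 36.5 and 30.5 FPKM, and Camp, the gene of the cathelicidin precursor, at 0.088 and 0.15 FPKM. Flg, the gene of filaggrin, was at 72.0 and 87.2 FPKM, and its relative Flg2 at 77.0 and 71.0 FPKM.

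**Figure D4:**
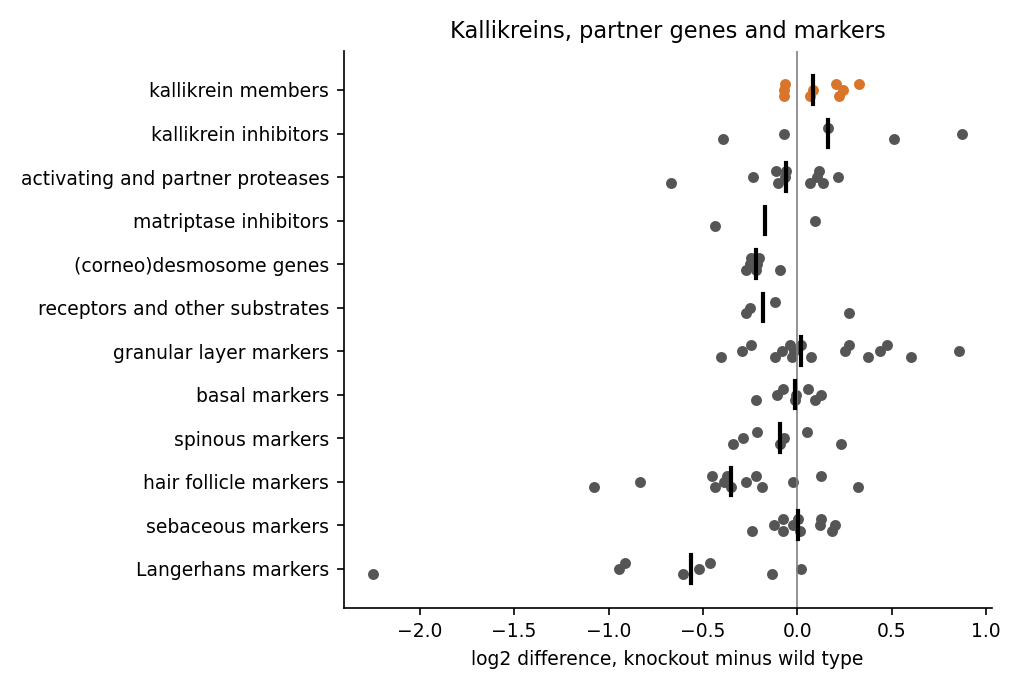
Log2 difference, knockout minus wild type, on the log2(FPKM + 1) scale for each gene past the filter in the kallikrein family (orange), its inhibitors, activators, junction genes and other targets, and markers of layers, appendages and Langerhans cells (grey), with the median of each list as a black bar. Genes shared between lists are drawn in each. The 7 genes of corneodesmosomes and desmosomes past the filter all lie below 0, while the kallikreins lie on both sides of it.

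Markers of epidermal layers, appendages and immune cells were set beside these values. In bulk tissue, fewer cells of a type and less RNA per cell cannot be told apart. Of 17 granular layer genes, 9 were higher with the knockout and 8 were lower, and their median was 0.02. They had a summed level of 31029 and 31264 FPKM, most of it from Krt2, at 10929 and 10644 FPKM, and Krtdap, at 8296 and 8730 FPKM. The differences of the 17 genes ranged from Tgm1, at 93.1 and 70.1 FPKM, to Rptn, at 14.97 and 27.96 FPKM. Casp14, a caspase of cornification, was also at least 1.5-fold apart, at 96.9 and 147.8 FPKM. Of 7 spinous genes, 5 were lower with a median of -0.09, and Klf4 and Sfn differed most, by -0.34 and -0.29. The 2 higher were the most abundant of the list, Krt1, at 2772 and 3262 FPKM, and Krt10, at 14182 and 14704 FPKM. The summed level of the spinous list was 19938 and 20442 FPKM. The lists overlap: the spinous genes Dsg1a and Dsc1 and the granular gene Cdsn are junction genes counted above as well. Flg and Flg2, given above, are also in the granular list. Of 8 basal genes, 5 were lower with a median of -0.0097, and they had a summed level of 12436 and 13366 FPKM. Of the hair follicle list, 11 of the 13 genes past the filter were lower, their median was -0.35 and it had a summed level of 78.0 and 63.5 FPKM over the 15 genes of the list. The inner root sheath keratin gene Krt71 differed most, at 5.17 and 1.92 FPKM. Of 8 Langerhans cell genes 7 were lower, 4 of them at least 1.5-fold, their median was -0.56 and they had a summed level of 753 and 523 FPKM. Among them H2-Eb1, a class II histocompatibility gene, was at 29.97 FPKM in wild type against 5.53 FPKM in the knockout library, and Cd207, the gene of langerin, at 37.6 and 19.5 FPKM. Of 11 sebaceous genes 6 were higher, their median was 0.0040 and they had a summed level of 1674 and 1680 FPKM. Of the neutrophil genes 4 of 9 were listed at 0 in both libraries and Cxcr2 alone passed the filter, at 6.25 and 8.10 FPKM. None of these lists had a marker at 0 in both libraries apart from that of neutrophils. Their part in the kallikrein values was not tested.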

How the data were processed

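Epidermal RNA of 1 wild-type and 1 K14 conditional Il9ra KO library was compared. Per the labels' protocols, ears were kept in dispase II (1 mg/ml, 37 °C, 1 h), RNA was extracted with Trizol and libraries were made from 3 µg of RNA. The authors used TopHat2 2.0.13 and Cufflinks 2.2.1 with mm10, per the submitters' processing notes; the sources used here do not give the annotation, strand use or scaling. The authors deposited FPKM for each locus, per the file headers. Their table also has, for each locus, a deposited log2 ratio, a score (their test statistic), a p-value and a q-value, which were copied.

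Of 29246 rows, 26264 had a name and a RefSeq transcript; rows of 1 name were summed to 26242 genes. Genes that reached 1 FPKM in 1 library or more were compared as log2((knockout FPKM + 1)/(wild-type FPKM + 1)). This scale understates differences of low genes; ratios are of the FPKM themselves. Depth was estimated from the lowest step of FPKM times length over 593 and 643 single-transcript genes of 3 to 12 kb; fragment numbers are approximate and no counting intervals are given. FPKM of short transcripts are imprecise. With 1 library per genotype no test was made, and counts at 2-fold and 1.5-fold are descriptions. Members and gene lists were chosen with earlier results of these data known. Genes could be named if they were members, among the 3 most abundant or the 4 most different of a list, or Il9r or Krt14, and not all of these are printed; Klk15, St14, Dsg1a, Dsg1b, Dsg1c, Tgm1, Camp, Mep1a, Mep1b and 2310002F09Rik were added. A2ml1, an inhibitor, was not analysed here. Protein comparisons were not made. Positions are from GENCODE M21 (GRCm38, the assembly of mm10) and promoters from RefSeq (GRCm38.p6). The depth estimate and the counting at 2-fold were tested on simulated data, which held no variation between animals. The other steps had no such test. Software was matplotlib 3.10.9, scipy 1.17.1, pandas 2.3.3 and numpy 2.4.6 under Python 3.11.15.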

Additional observations from a re-analysis of the deposited data

How the results depend on the processing

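Alternatives were pseudocounts of 0.1 and 5 FPKM, a filter of 5 FPKM or none, centring on the median gene and matching of upper quartiles, which multiplies the knockout values by 1.02. Under each of them 0 members were 2-fold or 1.5-fold apart, with the family median over 10 genes between 0.07 and 0.11. The sign of every member was kept, though only the scalings could have changed it. For single members 2 of 53 alternative values moved by more than 0.1 on the log2 scale, both of Klk14. A filter cannot change the value of a single member. The scalings shifted each member by less than 0.1, so the pseudocounts alone could move a value that far. The 49 higher and 41 lower genes of the background were 100 and 103 when 0.1 FPKM was added before the log and 16 and 16 when 5 FPKM was, and 24 and 28 with a filter of 5 FPKM, which leaves fewer genes. Of 77 alternative medians of the partner lists 9 moved by more than 0.1. The inhibitors changed sign with the filter of 5 FPKM (-0.07). The hair follicle median of -0.35 became -0.56 and -0.15 with pseudocounts of 0.1 and 5 FPKM and -0.24 with the filter of 5 FPKM. The other 5 were of the fibroblast and neutrophil lists, each with 1 gene past the filter. The basal median, near 0, changed sign when upper quartiles were matched (0.024) or the median gene was centred (0.013). The log2 ratio of the summed kallikrein FPKM was 0.03 and stayed within 0.1 of it without Klk7. No replicate could be left out, and no paired analysis was possible because there was 1 library per genotype. Klk12 and Klk14 rest on few fragments, so their differences are limited by depth.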
